A study of Triticum aestivum with 12 samples.

Results

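Expression of endosperm transfer cell, lipid transfer and egg apparatus proteins is described across 2 wheat genotypes and 2 stages of grain filling for 4 probe sets, out of 61179 tested. They were annotated in the study as the endosperm transfer cell specific protein PR9 (Ta.10046.1.S1_at), LTPL31, a member of the lipid transfer protein (LTP) family (Ta.10147.1.S1_x_at), a lipid binding and transport protein (TaAffx.70171.1.A1_s_at) and an egg apparatus protein (TaAffx.79513.1.S1_at). The identifiers of the other lipid transfer probe sets stand in the plot of their group means. The 4 probe sets described, called members below, were taken from the study's own list of differentially expressed probe sets. The members stand there for a lower expression in IITR26 at 28 days after anthesis (DAA). The genotype difference at 28 DAA therefore chose them, and the members' values that use the 28 DAA arrays are given as a description, without a p-value. Where members are counted as past the thresholds on such a contrast, the count describes the choice and is no result. The same holds for the rank of a member among all probe sets on such a contrast. The genotype difference at 14 DAA is taken between other arrays and was tested. Its standard error and p-value use the spread within all 12 arrays, those of 28 DAA among them, so that the test is not fully independent of the choice.

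The study compared IITR26, a landrace whose grains are high in minerals, with WL711, a cultivar whose grains are low in minerals, to find expression differences during grain filling. On 3 field-grown plants of each genotype the ears were marked when they flowered, and grains were taken at 14 and 28 DAA from the first and the second floret of spikelets in the middle of the ear. RNA of 3 whole grains was hybridized to an Affymetrix Wheat Genome Array for each sample, with 3 arrays in each of the groups IITR26 14 DAA, WL711 14 DAA, IITR26 28 DAA and WL711 28 DAA. The samples of a group were called biological replicates, but no source says whether each came from a plant of its own, so that the tests measure the spread between these samples. No transgene or treatment was involved, and each genotype is 1 line, so that the genotype differences are those between these lines.

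Endosperm transfer cells line the base of the cereal endosperm, next to the maternal vascular tissue, and carry ingrowths of the cell wall that enlarge the membrane through which sugars, amino acids and mineral ions enter the grain. Small cysteine-rich secreted proteins are typical of these cells. Lipid transfer proteins are also small, secreted and rich in cysteine, and hold a lipid in a hydrophobic cavity. They are best known from the assembly of cuticle and other surface lipids and from defence, and they share a fold with the protease inhibitor and seed storage proteins, which is why the annotation names these families together. Egg apparatus proteins are known from maize, where a small protein secreted by the egg apparatus attracts the pollen tube to the ovule.

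Values are log2 expression relative to the median of the same probe set over the 12 arrays, so that 0 is that median and a difference of 1 is a 2-fold change. The brightness of a probe set cannot be read from them, and levels of different probe sets cannot be compared. The names of LTPL31 and the lipid binding protein carry the suffixes x and s, which mark probes that can bind several transcripts, so that near-identical copies cannot be told apart in these 2 probe sets. The correlation between replicate arrays over all probe sets was 0.883 to 0.903 in WL711 14 DAA, 0.831 to 0.879 in IITR26 28 DAA, 0.590 to 0.729 in IITR26 14 DAA and 0.286 to 0.672 in WL711 28 DAA. These are correlations of the centred values, without the differences in level between probe sets, and cannot be set beside correlations of uncentred signals. Replicate 1 of WL711 28 DAA stood apart from the other arrays of its group.

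All 4 probe sets were far lower in IITR26 grains at 28 DAA than in any other group, by 64.1-fold to 143-fold against WL711 at the same stage. In IITR26 they were also 84.9-fold to 278-fold lower at 28 DAA than at 14 DAA. In WL711 the stages differed much less, by 4.62-fold at most. At 14 DAA the genotypes were within 3.42-fold of each other, with PR9 lower and the egg apparatus protein higher in IITR26 by the test.

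**Figure D1:**
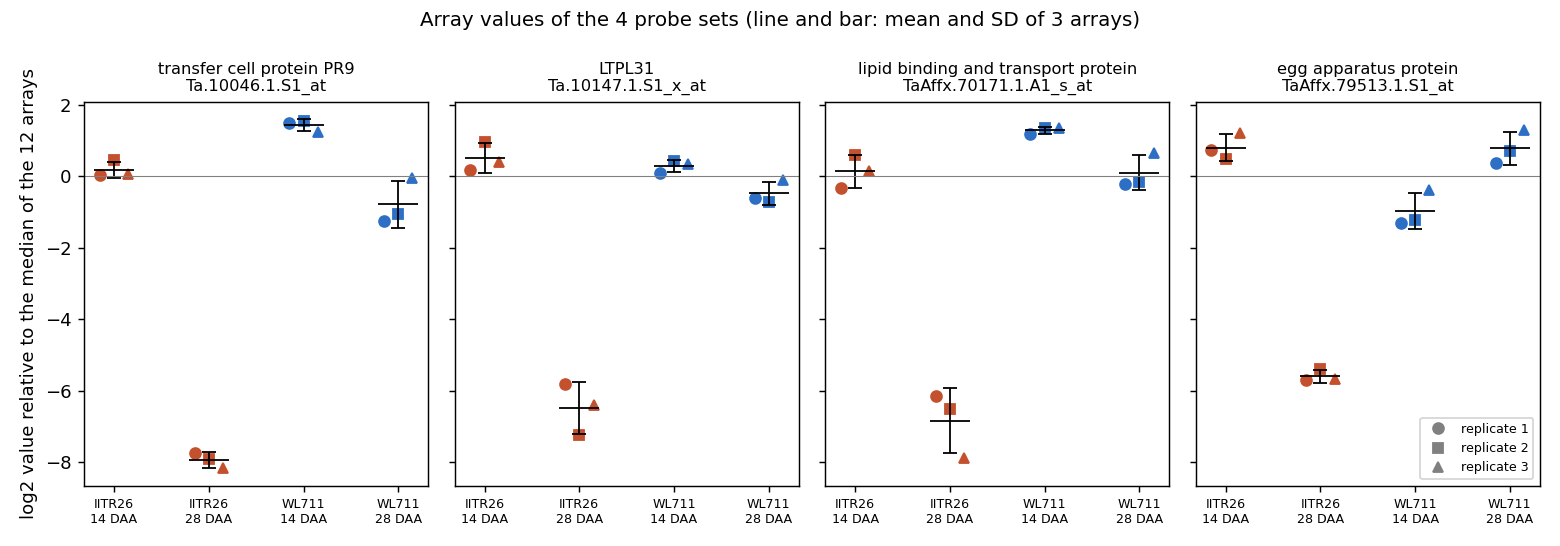
Log2 value of each of the 4 probe sets (vertical axis, relative to the median of the 12 arrays) in each array of the 4 groups (horizontal axis), with a symbol for each replicate and the mean and SD of 3 arrays as line and bar. The IITR26 28 DAA arrays lie between -8.17 and -5.39, and all other arrays lie between -1.30 and 1.56.

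PR9 is annotated as a protein of the endosperm transfer cells. Its log2 values were 0.03, 0.45 and 0.07 in IITR26 14 DAA (mean 0.18 ± 0.23, SD, n = 3) and 1.5, 1.56 and 1.24 in WL711 14 DAA (1.43 ± 0.17). They were -7.74, -7.90 and -8.17 in IITR26 28 DAA (-7.94 ± 0.22) and -1.24, -1.05 and -0.03 in WL711 28 DAA (-0.78 ± 0.65). The genotypes did not overlap at either stage, nor did the stages overlap in either genotype. In WL711 28 DAA, replicate 3 stood above the other 2 arrays. The difference of IITR26 minus WL711 at 14 DAA was -1.25 (SE 0.26), 2.38-fold, with an adjusted p of 0.0088 in limma, and was past the threshold of 0.01 on the adjusted p but not past a log2 difference of 2. The pass on the adjusted p was narrow, with an adjusted p of 0.00046 to 0.039 as each array was left out in turn, above 0.01 for 10 of the 12 arrays. It was 0.018 with the replicate number as a block and 0.12 after a further quantile normalization, which brought the difference to -0.86. At 28 DAA the difference was -7.16 (SE 0.26), 143-fold, and 1 probe set of all lay further below 0. The stage change was -8.12 (SE 0.26) in IITR26 and -2.21 (SE 0.26) in WL711, so that PR9 was lower at 28 DAA in both genotypes.

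LTPL31 belongs to the LTP family by its annotation. Its values were 0.18, 0.97 and 0.41 in IITR26 14 DAA (0.52 ± 0.41) and 0.11, 0.42 and 0.34 in WL711 14 DAA (0.29 ± 0.16). The 2 groups overlapped. Their difference of 0.23 (SE 0.32) had a 95% confidence interval of -0.46 to 0.92 and an adjusted p of 0.78, so that these arrays leave room for any difference within that interval. At 28 DAA the values were -5.80, -7.23 and -6.40 in IITR26 (-6.48 ± 0.72) and -0.60, -0.71 and -0.11 in WL711 (-0.47 ± 0.32), a difference of -6.00 (SE 0.32). The stage change was -7.00 (SE 0.32) in IITR26 and -0.76 (SE 0.32) in WL711. The stages did not overlap in either genotype, although the gap in WL711 was narrow, between 0.11 at 14 DAA and -0.11 at 28 DAA.

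The lipid binding and transport protein is annotated by its function alone. It measured -0.32, 0.61 and 0.16 in IITR26 14 DAA (0.15 ± 0.46) and 1.18, 1.35 and 1.35 in WL711 14 DAA (1.29 ± 0.10). The arrays of the genotypes did not overlap. The difference of -1.15 (SE 0.39, 95% confidence interval -2.01 to -0.28) did not pass, with an adjusted p of 0.087. At 28 DAA it measured -6.15, -6.50 and -7.87 in IITR26 (-6.84 ± 0.91) and -0.22, -0.16 and 0.66 in WL711 (0.10 ± 0.49). The difference was -6.94 (SE 0.39), 123-fold. The spread of the IITR26 28 DAA arrays was the widest of the 4 probe sets, with replicate 3 below the other 2 arrays. From 14 to 28 DAA it changed by -6.99 (SE 0.39) in IITR26 and by -1.20 (SE 0.39) in WL711.

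The egg apparatus protein differed from the other 3 probe sets in WL711, where its stage change had the opposite sign. It measured 0.73, 0.49 and 1.22 in IITR26 14 DAA (0.81 ± 0.37) and -1.30, -1.22 and -0.37 in WL711 14 DAA (-0.96 ± 0.51). IITR26 was higher in every array, by 1.77 (SE 0.28), 3.42-fold, with an adjusted p of 0.0017, and this difference was past the adjusted p but short of a log2 difference of 2. The adjusted p was 0.00072 to 0.01 as each array was left out in turn, and was just above the threshold without replicate 3 of IITR26 14 DAA (1.57) or replicate 1 of WL711 14 DAA (1.61). At 28 DAA the order was the opposite one, with -5.71, -5.39 and -5.68 in IITR26 (-5.59 ± 0.18) and 0.37, 0.71 and 1.29 in WL711 (0.79 ± 0.46). The difference was -6.38 (SE 0.28), 83.5-fold. Its stage change was -6.41 (SE 0.28) in IITR26 and 1.75 (SE 0.28) in WL711, the only one of the 4 with a higher value at 28 DAA in WL711.

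Of the 4 probe sets, 2 passed the adjusted p at 14 DAA, 1 in each direction, against 6.47% of all probe sets. None reached the log2 difference of 2 that a call also needed, against shares of 0.595% (higher in IITR26) and 0.772% (lower) of all probe sets. For 3 of the 4 the genotypes did not overlap at 14 DAA, as for 31.7% of all probe sets. With 3 arrays in each group, the smallest p that an exact permutation test allows is 0.1, so that no single probe set could have passed the threshold by it. At 28 DAA, the contrast that chose them, all 4 were past the thresholds for a lower call, beside 0.804% of all probe sets, and did not overlap between genotypes, beside 28.2%. Of all probe sets, 12 were at least as far below 0 in this difference as LTPL31, the member with the smallest one.

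The difference between the genotype differences at the 2 stages (28 DAA minus 14 DAA) measures how far the genotype difference shifted between the stages. It was -8.16 (SE 0.40) for the egg apparatus protein, -6.23 (SE 0.45) for LTPL31, -5.91 (SE 0.37) for PR9 and -5.79 (SE 0.56) for the lipid binding protein. The last 3 lie within about 1 SE of each other. In the egg apparatus protein the genotype difference changed sign, from 1.77 at 14 DAA to -6.38 at 28 DAA. Its -8.16 is therefore more than the widening of the gap, and it does not rank this protein as the one that parted most. Of the 61179 probe sets, 22 were at least as far below 0 as the lipid binding protein. In IITR26 all 4 were past the thresholds for a lower value at 28 than at 14 DAA (1.59% of all probe sets, 37.9% without overlap between the stages), and 18 probe sets were at least as far below 0 as the egg apparatus protein. In WL711 only PR9 was past them (1.34% of all, 36.9% without overlap). Since these contrasts share the 28 DAA arrays with the choice of the probe sets, nothing is read from these counts. In RNA of whole grains, fewer cells of a type and less RNA in each cell cannot be told apart.

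**Figure D2:**
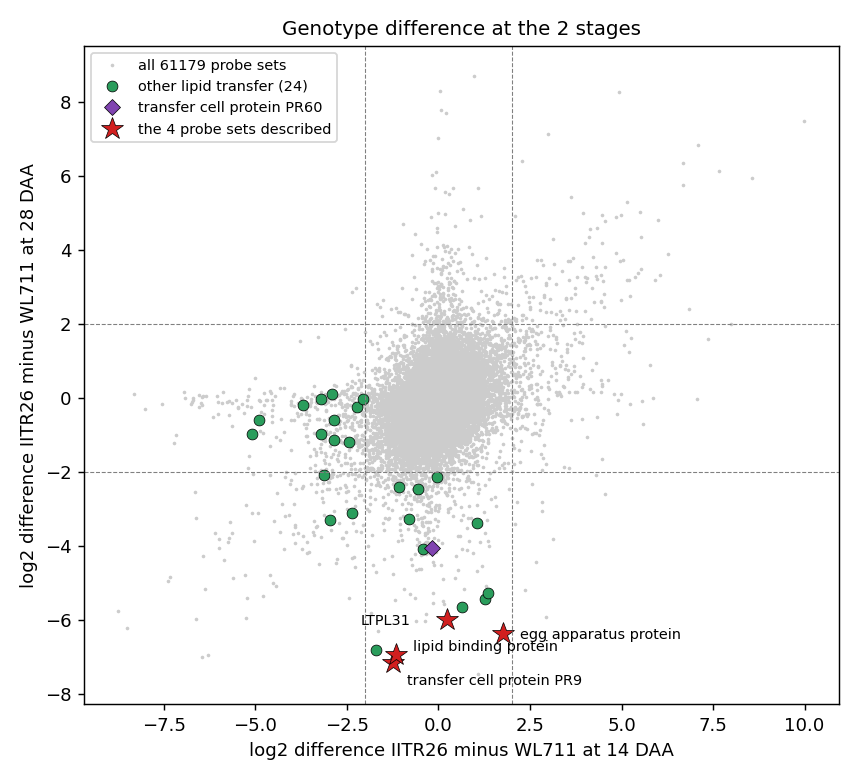
Log2 difference of IITR26 minus WL711 at 14 DAA (horizontal axis) against that at 28 DAA (vertical axis) for all 61179 probe sets (grey), the 24 other lipid transfer probe sets (green), PR60 (violet) and the 4 probe sets described (red stars), with dashed lines at a log2 difference of 2 in either direction. The 4 lie between -7.16 and -6.00 at 28 DAA and between -1.25 and 1.77 at 14 DAA.

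Across the 12 arrays the 4 probe sets ran close together. Pearson's r was 0.99 between PR9 and the lipid binding protein, 0.98 between LTPL31 and each of these, and 0.88 to 0.93 between the egg apparatus protein and the other 3. These values mostly repeat the low level of 1 group. When each array was taken as its deviation from its group mean, r was 0.71 between PR9 and the lipid binding protein, 0.49 between PR9 and LTPL31, 0.40 between LTPL31 and the lipid binding protein and -0.06 to 0.26 for the egg apparatus protein. In WL711 28 DAA, replicate 3 was the highest array for all 4. Replicate 1 of that group stood apart over all probe sets. Without replicate 1 the difference at 28 DAA was -7.39 for PR9, -6.07 for LTPL31, -7.09 for the lipid binding protein and -6.59 for the egg apparatus protein. Without replicate 3 it was smaller for all 4 than with all arrays, at -6.79, -5.82, -6.66 and -6.14 in the same order.

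Other probe sets of the array carry the same cluster number as a member, the part of the identifier before the second point. The cluster number of LTPL31 is shared by 4 probe sets, and the other 3 followed LTPL31. The difference at 28 DAA was -5.57 (SE 0.33) and -5.48 (SE 0.27) for those with the suffix x and -4.88 (SE 0.23) for the one without a suffix, with r of 0.992 or more to LTPL31 over the 12 arrays. At 14 DAA they differed by 0.11 to 0.16, beside 0.23 in LTPL31. In the probe set without a suffix for shared probes, all 3 arrays of IITR26 28 DAA held the same lowest value of -5.15. Such a shared lowest value in at least 3 arrays occurred in 6.76% of all probe sets and in 0 of the 4 members (tolerance 1e-04), and whether it is the bottom of the scale cannot be read from centred values.

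The cluster number of the egg apparatus protein is shared by 3 probe sets, which did not follow each other. Against -6.38 for the egg apparatus probe set, the difference at 28 DAA was -0.19 (SE 0.13) and -0.23 (SE 0.16) for the other 2. In IITR26 their stage changes were -0.16 and -0.15, and in WL711 they were 0.40 and 0.39. The r with the egg apparatus probe set was 0.332 and 0.325 over the 12 arrays. At 14 DAA they were 0.37 and 0.31 higher in IITR26, on the same side of 0 as the 1.77 of the egg apparatus probe set. The low value at 28 DAA was thus seen in 1 of the 3 probe sets of this number. PR9 and the lipid binding protein have no other probe set with their number.

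**Figure D3:**
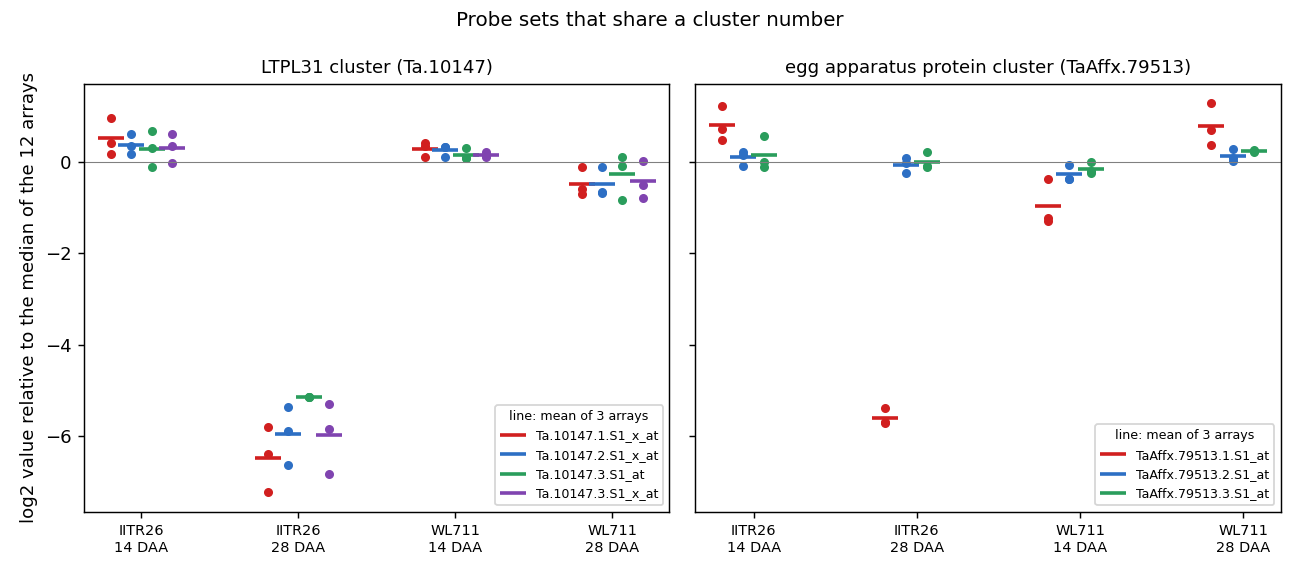
Log2 value (vertical axis, relative to the median of the 12 arrays) of the probe sets that share the cluster number of LTPL31 (left) or of the egg apparatus protein (right) in the arrays of the 4 groups (points), with the mean of 3 arrays as a line. All 4 probe sets on the left are low in IITR26 28 DAA, with means of -6.48 to -5.15, and on the right only the egg apparatus probe set is, with -5.59 against -0.06 and 0.01.

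Another transfer cell protein, PR60, stands in the study's list. PR60 is known in wheat and related cereals for a promoter that is active in the endosperm transfer cells. Its values were -0.11, 0.64 and 0.11 in IITR26 14 DAA and 0.19, 0.59 and 0.39 in WL711 14 DAA, with overlap. They were -3.79, -4.78 and -4.11 in IITR26 28 DAA and -0.35, -0.42 and 0.27 in WL711 28 DAA, without overlap. The genotype difference was -0.17 at 14 DAA and -4.06 at 28 DAA, and the stage change was -4.44 in IITR26 and -0.56 in WL711. PR60 was thus low in the same group as the members, with a smaller range, and it was among the 5 probe sets most like LTPL31 over the 12 arrays (r = 0.997). As its difference at 28 DAA placed PR60 in that list, as it did the members, this likeness is no independent evidence.

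The study's list names 24 other lipid transfer probe sets, and they showed more than 1 pattern. As the list was chosen on these arrays, its counts are no independent evidence of a direction. At 14 DAA, 14 of the 24 passed as lower in IITR26 and 0 as higher (0.772% and 0.595% of all probe sets), with a median difference of -2.29 and a range of -5.09 to 1.35, beside a median of 0.0098 over all probe sets. At 28 DAA, 13 were called lower and 0 higher (0.804% and 0.566% of all probe sets), with a median of -2.10 and a range of -6.81 to 0.11, beside -1e-04 over all. Lower calls at 28 DAA alone were made in 10 of the 24, at 14 DAA alone in 11 and at both stages in 3. All 4 members were called at 28 DAA alone. Of all probe sets, 379 were called lower at 28 DAA alone, 369 at 14 DAA alone and 103 at both.

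Of the 10 called at 28 DAA alone, as the members were, 8 were also called lower at 28 than at 14 DAA in IITR26, and 6 of the 8 were not called in WL711. Of the 379 such probe sets among all, 294 were called lower in IITR26 and 231 of these were not called in WL711, so that the lipid transfer counts were near those of the whole array. A lipid transport probe set measured -0.76, 0.04 and -0.41 in IITR26 14 DAA, 1.17, 1.39 and 1.43 in WL711 14 DAA, -6.32, -6.33 and -6.57 in IITR26 28 DAA and -0.04, 0.27 and 0.98 in WL711 28 DAA. Its difference was -1.71 at 14 DAA and -6.81 at 28 DAA, beside -1.15 and -6.94 in the lipid binding protein. A nonspecific lipid transfer protein differed by 0.65 and -5.64, and another by 1.35 and -5.28. LTPL39 differed by 1.28 and -5.43, but here the stage change was 4.68 in WL711 against -2.03 in IITR26. Its values were 3.96, 4.39 and 4.39 in WL711 28 DAA, and all other groups lay between -1.34 and 1.22.

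The 11 called at 14 DAA alone were highest in WL711 14 DAA. Of these, 8 were called lower at 28 than at 14 DAA in WL711, and 6 of the 8 were not called in IITR26. Over the whole array, 288 of the 369 were called lower in WL711 and 219 of these were not called in IITR26, again a like share. A probe set of the LTP family measured 4.85, 4.98 and 4.87 in WL711 14 DAA and between -0.92 and 0.48 in all other arrays. It differed by -5.09 at 14 DAA and by -0.98 at 28 DAA. Another measured 6.82, 6.98 and 6.84 in WL711 14 DAA and 2.04, 2.96 and 0.97 in IITR26 14 DAA, and differed by -4.89 and -0.58. A lipid transport probe set differed by -3.71 and -0.19, and a further LTP family probe set by -3.21 and -0.02. PR9 and the lipid binding protein were also highest in WL711 14 DAA, with means of 1.43 and 1.29, but no member was called at 14 DAA.

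The stage changes of the 24 were mixed. In IITR26, 11 were called lower at 28 DAA and 0 higher (1.59% and 1.33% of all probe sets), with a median of -1.87. In WL711, 10 were called lower and only LTPL39 higher (1.34% and 0.958% of all), with a median of -1.26. The medians over all probe sets were 0.014 and 0.028.

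**Figure D4:**
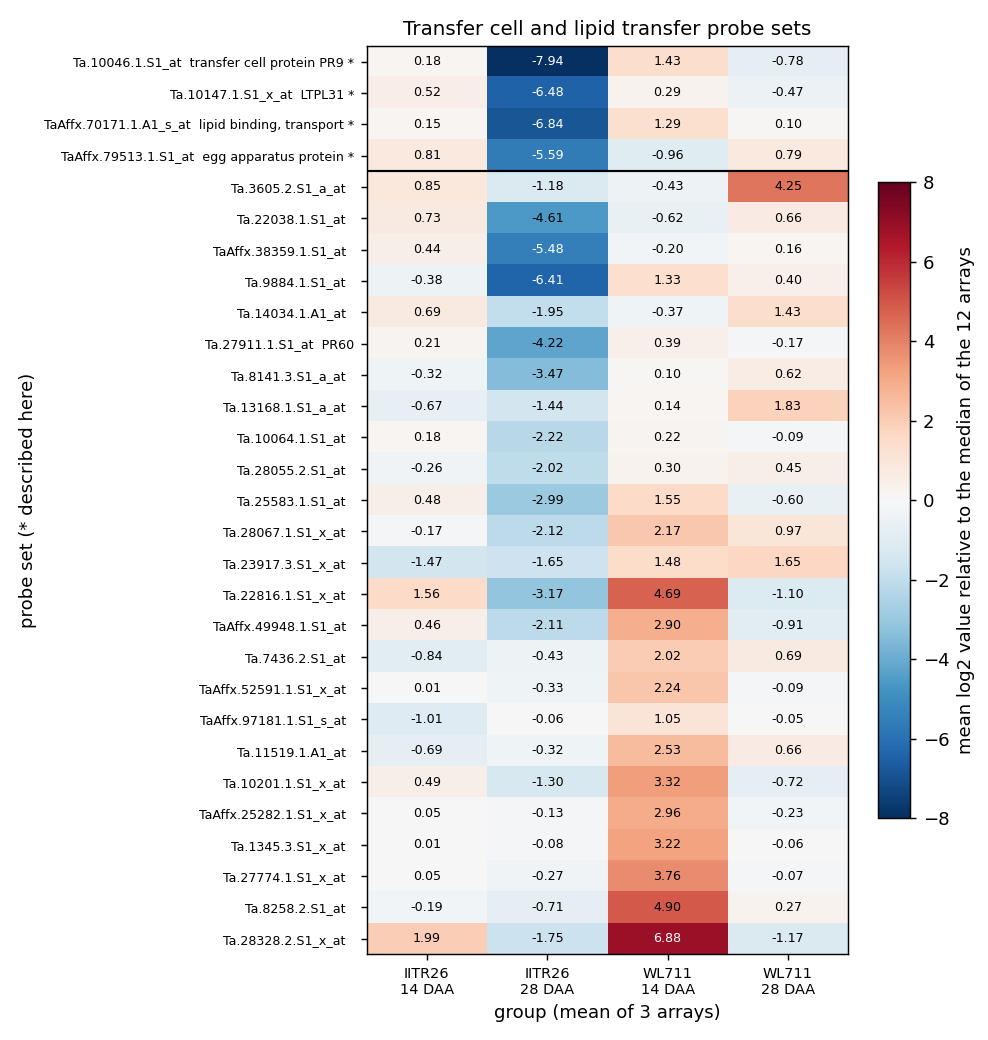
Mean log2 value of 3 arrays (colour and number, relative to the median of the 12 arrays) in each group (columns) for the 4 probe sets described (above the line), PR60 and the 24 other lipid transfer probe sets (below it), ordered by the genotype difference at 28 DAA minus that at 14 DAA. The probe sets near the top are low in IITR26 28 DAA or high in WL711 28 DAA, and those near the bottom are high in WL711 14 DAA, up to 6.88.

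By correlation over the 12 arrays, the 5 probe sets most like each member were taken from the other probe sets whose group means span a log2 range of at least 2. Those most like PR9 were 2 hypothetical proteins (r = 0.996 and 0.993), 2 probe sets without a name and histone H3 (r = 0.993), a packaging protein of the chromatin. LTPL31 was followed by 2 probe sets of its own cluster number, PR60, an unnamed probe set and a hypothetical protein (r = 0.996). The lipid binding protein was followed by 3 probe sets of glucose-1-phosphate adenylyltransferase, an enzyme of starch synthesis, in its large subunit, 1 by the study's annotation and 2 by the same platform gene (r = 0.993, 0.993 and 0.990). Their difference at 28 DAA was smaller, -2.72 to -2.41. It was further followed by 1 of the 2 hypothetical proteins most like PR9 (r = 0.993) and a chemocyanin, a small copper protein (r = 0.992).

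The egg apparatus protein was most like the nonspecific lipid transfer protein that differed by 1.35 at 14 DAA and by -5.28 at 28 DAA (r = 0.992). It measured 0.31, 1.10 and 0.77 in IITR26 14 DAA, -0.72, -0.83 and -0.31 in WL711 14 DAA, -4.58, -4.73 and -4.53 in IITR26 28 DAA and 0.46, 0.45 and 1.09 in WL711 28 DAA. It so shared the higher value in IITR26 at 14 DAA and in WL711 at 28 DAA. Next came 3 probe sets with 1 shared cluster number (r = 0.976 to 0.984), of which 1 is annotated as a Bric-a-Brac/Tramtrack/Broad Complex protein. A hypothetical protein (r = 0.979) differed by 1.09 at 14 DAA and by -7.47 at 28 DAA. As the r over 12 arrays follows the 4 group means, likeness here is that of the group pattern.

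Markers of other cells of the grain moved between the same groups, and their part in the members' values was not tested. As the values are relative to each probe set's own median, the levels of a list cannot be summed, and the range of the list's median over the 3 arrays is given. Nor do centred values show whether a marker is present at all. Probe sets of cell division (histones, cyclins, kinesins, and factors of DNA replication) were called lower in IITR26 at 28 DAA in 15 of 16 (0.804% of all probe sets), with a median difference of -3.25. Their median was -3.03 to -2.69 in IITR26 28 DAA, -0.06 to 0.22 in WL711 28 DAA, -0.02 to 0.05 in IITR26 14 DAA and 0.21 to 0.74 in WL711 14 DAA. The lowest group was thus that of the members, and the difference was as far below 0 as -6.04 in a histone H4 probe set. From 14 to 28 DAA, 10 of the 16 were called lower in IITR26 (1.59% of all probe sets) and 0 in WL711 (1.34%).

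The lists of photosynthesis and lipid metabolism were also lowest in IITR26 28 DAA and had the order of group means seen in PR9, and those of storage proteins and the embryo did not. In the calls at 28 DAA that follow, 0.804% of all probe sets were lower and 0.566% higher. Probe sets of photosynthesis, which mark the green pericarp, were highest in WL711 14 DAA, with a list median of 2.48 to 2.95 there and of -1.95 to -1.5 in IITR26 28 DAA, and 2 of 9 were called lower in IITR26 at 28 DAA. The median of the storage proteins of the starchy endosperm was lowest in WL711 14 DAA (-4.23 to -3.58). It lay between -0.26 and 0.57 in IITR26 28 DAA, where the members were lowest. The avenin-like storage protein, the 1 of 4 that was called lower at 28 DAA, went the other way from this median. Its mean was 1.85 in WL711 14 DAA, its highest group, and -2.74 in IITR26 28 DAA, its lowest. Proteins of the embryo and of late embryogenesis were highest in IITR26 28 DAA (2.45 to 2.96) and lowest in WL711 14 DAA (-3.46 to -3.05), with 4 of 8 called higher at 28 DAA and 1 called lower. The median of 9 other probe sets of lipid metabolism was 1.99 to 2.45 in WL711 14 DAA, 0.09 to 0.27 in IITR26 14 DAA, -0.23 to -0.17 in WL711 28 DAA and -0.71 to -0.46 in IITR26 28 DAA. Of these, 1 was called higher at 28 DAA, the oil body protein oleosin (2.69), which is also counted in the list of the embryo. In the same list 4 were called lower, among them a GDSL lipase and an acyltransferase (-2.60 each). These lists too were taken from the study's list of called probe sets.

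**Figure D5:**
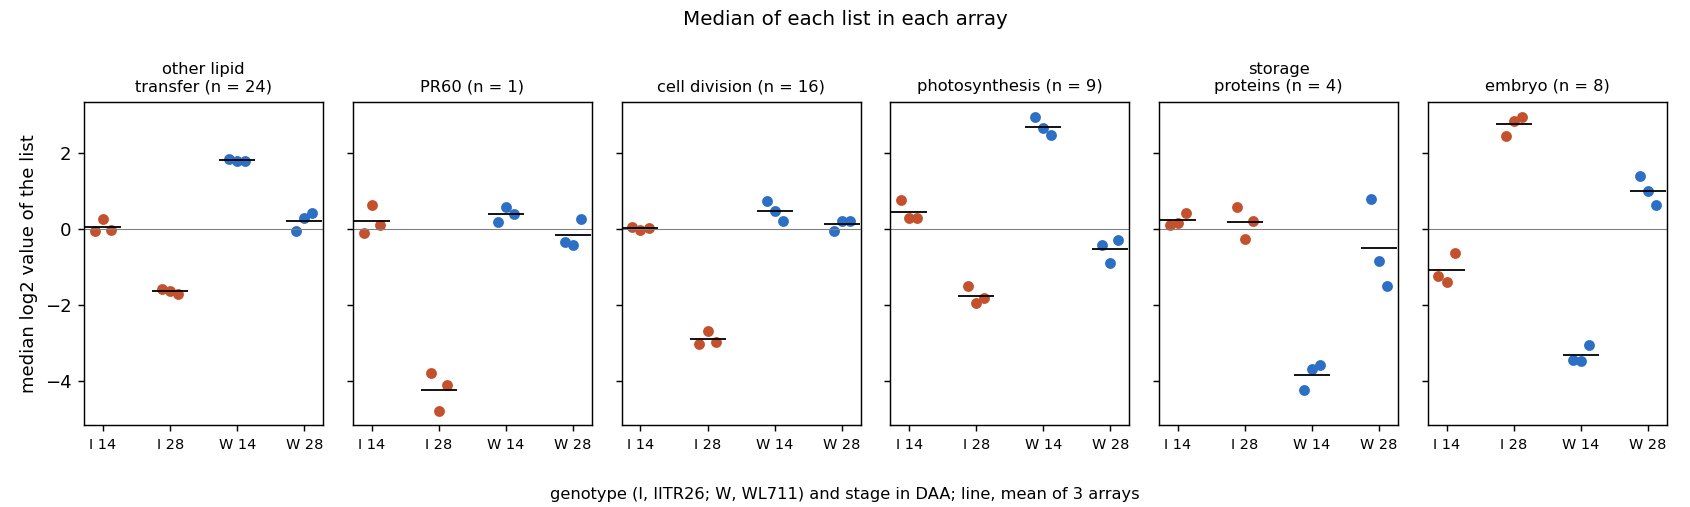
Median log2 value of each list of probe sets (vertical axis, relative to each probe set's median of the 12 arrays) in each array (points), by genotype and stage (horizontal axis), with the mean of 3 arrays as a line. PR60 and the lists of cell division, photosynthesis and other lipid transfer are lowest in IITR26 28 DAA, with ranges of -4.78 to -3.79, -3.03 to -2.69, -1.95 to -1.5 and -1.71 to -1.57, whereas the embryo list is highest there.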

How the data were processed

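Signals of the Affymetrix arrays were normalized by the authors with RMA (GeneSpring GX v12). The deposited file holds log2 values of 61290 probe sets, each centred on its median over the 12 arrays, although no such step stands in the methods. No columns of the authors' own comparisons were present. After 111 control probe sets were left out, 61179 entered 1 limma model (lmFit and eBayes, version 3.58.1 under R 4.3.3), with 1 mean per group and 8 residual degrees of freedom. Benjamini-Hochberg adjustment covered all of them. Calls needed an adjusted p no higher than 0.01 together with a log2 difference of 2 or more in either direction. The number of arrays limits the precision. The fit was tested on simulated data.

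The members and lists were chosen with earlier results of these data known. Lists hold probe sets of the study's list of called probe sets (580 names), by key words. Named were the members, up to 4 lipid transfer probe sets with the largest and with the smallest genotype differences at each stage, up to 3 of each other list and the 5 most like each member. Probe sets outside this rule are LTPL128 and those that share a member's cluster number, chosen after their values were seen. Protein and transcript sequences of the members were not used here, and none of the 4 has a gene in the platform annotation used here. Alternatives were a fit of only the 6 arrays of a stage, the replicate number as a block, a further quantile normalization, array medians set to 0, the methods' t-test with adjustment, the omission of probe sets whose suffix is x, s or a, other thresholds and the omission of each array. The methods' t-test without adjustment was added after seeing the data.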

Additional observations from a re-analysis of the deposited data

Results flagged for a closer look

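Among the 4 members and the 24 other lipid transfer probe sets, 5 had every IITR26 array above every WL711 array at 14 DAA and below every one at 28 DAA, as did 1407 of all 61179 probe sets (2.3%). The difference between the stages was not tested. The egg apparatus protein differed by 1.77 at 14 DAA and by -6.38 at 28 DAA. The other 4 are lipid transfer probe sets. Of these, 2 are nonspecific lipid transfer proteins, which differed by 0.65 and -5.64 and by 1.35 and -5.28. The others are LTPL39 (1.28 and -5.43) and LTPL128 (1.06 and -3.38). In LTPL39 the WL711 28 DAA arrays were the highest of all, at 3.96 to 4.39. In LTPL128 they measured 1.11 to 1.68 and overlapped with IITR26 14 DAA (0.29 to 1.13), whereas in the other 3 the IITR26 28 DAA arrays stood far below all others.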

How the results depend on the processing

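No result reversed its direction under any alternative tried. Between the deviations of same-numbered arrays r was -0.065 to 0.188 in 18 pairs, with a median of 0.05 and 2 over 0.1. In 36 pairs of different numbers the median was -0.023, with 0 over 0.1. Any pairing by number was thus weak over all pairs of groups, and whether there was one was not tested. Both values over 0.1, 0.155 and 0.188, lay between IITR26 14 DAA and WL711 14 DAA, the groups of the tested contrast. For replicate 1 of these groups r was 0.035, and different numbers between them gave -0.208 to 0.076. With the replicate number as a block in limma, the difference of PR9 at 14 DAA was -1.25 with an adjusted p of 0.018 and missed the threshold. PR9 at 14 DAA also missed the threshold after quantile normalization (-0.86, 0.12), by the methods' t-test with adjustment (-1.25, 0.038) and without probe sets of suffix x, s or a (-1.25, 0.01, just above it). The egg apparatus protein at 14 DAA missed it with only the 6 arrays of that stage (1.77, 0.014) and by the adjusted t-test (1.77, 0.082). Quantile normalization, which evens out differences between arrays, brought the difference at 28 DAA to -6.61 for PR9, -5.31 for LTPL31, -6.19 for the lipid binding protein and -5.84 for the egg apparatus protein, and the stage change of the lipid binding protein in IITR26 to -6.21. This step was run on the centred values, whose interquartile range was 0.228 to 0.399 over the arrays. It also evens out any true difference in that spread.

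Over all probe sets, calls at 14 DAA numbered 364 in the higher and 472 in the lower direction, and at 28 DAA 346 and 492. In that order these counts were 92, 127, 0 and 1 by the adjusted t-test (286 and 443 for 28 DAA without adjustment) and 1003, 1417, 1323 and 1878 with a log2 difference of 1. Quantile normalization gave 292 lower calls at 14 DAA, with 179 and 303 in the 2 directions at 28 DAA. Without the probe sets of suffix x, s or a, which removes features, 242 were higher at 14 DAA and 301 lower at 28 DAA. Of the 24 lipid transfer probe sets, 14 were lower at 14 DAA (8 after quantile normalization, 1 by the adjusted and 14 by the unadjusted t-test, 4 without the suffixes) and 13 at 28 DAA (0 by the adjusted and 13 by the unadjusted t-test, 7 without the suffixes). Apart from the omission of features the causes were not tested.

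With each array left out in turn, the difference at 14 DAA ranged from -1.38 to -1.17 for PR9, from 0.01 to 0.40 for LTPL31, from -1.38 to -0.91 for the lipid binding protein and from 1.57 to 2.07 for the egg apparatus protein. For PR9 the difference at 28 DAA ranged from -7.39 to -6.79, the stage change in WL711 from -2.58 to -1.97 and the difference between the stages from -6.15 to -5.54, with replicate 3 of WL711 28 DAA moving each of these most. The counts ranged from 262 to 385 and 398 to 501 at 14 DAA, from 295 to 447 and 448 to 652 at 28 DAA, and from 13 to 14 and 12 to 13 for the lipid transfer probe sets.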
